A study of Mus musculus with 36 samples.

Results

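Voltage-gated sodium channels open on depolarisation and carry the inward current that starts and propagates the action potential. Each channel has 1 pore-forming alpha subunit, which is sufficient for current, and smaller beta subunits that alter gating and surface expression. In dorsal root ganglion (DRG), the cluster of sensory neuron cell bodies outside the spinal cord, the alpha subunits are grouped by their block by the puffer fish toxin tetrodotoxin. Nav1.1, Nav1.2, Nav1.3, Nav1.6 and Nav1.7, encoded by Scn1a, Scn2a, Scn3a, Scn8a and Scn9a, are sensitive. Nav1.8 and Nav1.9, encoded by Scn10a and Scn11a, are resistant and are known mainly from nociceptors, the neurons that detect painful stimuli. Scn3b and Scn4b encode the beta subunits Navβ3 and Navβ4, and loss of function of the human Nav1.7 gene is known to cause insensitivity to pain.

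These 9 genes, 7 alpha and 2 beta, were taken by gene symbol, as paired with Ensembl identifiers in GENCODE M21, from the 55487 genes of the table, and all 9 passed the filter on low counts in both tissues. The study measured poly(A) RNA in 36 libraries of female mice that were knockout (KO) or wild type (WT) for 1 receptor gene, which is not a sodium channel gene. Spared nerve injury (SNI) cuts branches of the sciatic nerve and leaves 1 branch intact. It is a model of neuropathic pain. Each tissue, DRG and dorsal spinal cord, had 4 groups, which were KO SNI (4 libraries), KO naive (5 libraries), WT SNI (4 libraries) and WT naive (5 libraries). Naive animals had no treatment per the labels, so no sham operation stood beside the injury. For strain, age, time after injury and the extent of the deletion, the sources used here gave no entry. Nothing in the labels says whether libraries of a group were separate animals, so p-values measured the spread between libraries.

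Levels were expected counts scaled to counts per 1000000 (CPM) with TMM (trimmed mean of M values) library sizes, and depth was 21.34 to 27.27 M reads per library. Values after ± were standard deviations for levels and standard errors for log2 fold changes. A gene was called higher or lower when its Benjamini-Hochberg adjusted p from the edgeR quasi-likelihood test, over all genes tested, was under 0.05. Libraries are named by the codes in their titles. Libraries A2 and A4 of naive DRG were titled wild type, but their genotype field read knockout, as did the names of their columns, and they were placed by that field. Tissue markers went with the labels. Calca, a nociceptor neuropeptide gene, averaged 1222 ± 73.2 CPM in WT naive DRG and 28.1 ± 4.39 CPM in WT naive cord. Gad1, which encodes an enzyme of GABA synthesis in inhibitory neurons, averaged 0.854 ± 0.281 CPM in WT naive DRG and 248 ± 4.46 CPM in WT naive cord (SD, n = 5 each).

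The sequence most tied to the division of the family is the pore loop of the first domain, where 1 residue is known from work on rat channels to set tetrodotoxin sensitivity. The stretches below are 39 bases of the coding strand from GENCODE M21 transcripts on build GRCm38, read 5′ to 3′, with the codon of that residue in capitals. They are shown because this codon separates the genes in the same way as the toxin groups used for the results, and the 6 shown lay in exon 9 of the transcript used.
Scn2a: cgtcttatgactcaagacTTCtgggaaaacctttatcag
Scn3a: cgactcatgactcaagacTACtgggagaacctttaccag
Scn8a: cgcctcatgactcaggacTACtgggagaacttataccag
Scn9a: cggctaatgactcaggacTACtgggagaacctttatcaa
Scn10a: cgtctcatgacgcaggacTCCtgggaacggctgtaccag
Scn11a: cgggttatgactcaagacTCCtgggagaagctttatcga
The codon read phenylalanine in Scn2a, tyrosine in Scn3a, Scn8a and Scn9a, and serine in Scn10a and Scn11a. Against the Scn9a stretch, 28 of 39 bases were the same in Scn10a and 33 in Scn11a, while Scn2a and Scn8a had 33 and Scn3a had 34. The stretches were chr2:65688418-65688456 (plus strand) for Scn2a, chr2:65521795-65521833 (minus) for Scn3a, chr15:100971620-100971658 (plus) for Scn8a, chr2:66548983-66549021 (minus) for Scn9a, chr9:119666369-119666407 (minus) for Scn10a and chr9:119805662-119805700 (minus) for Scn11a.

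The genes fall into clusters on GRCm38. Scn3a, Scn2a, Scn1a and Scn9a lie between chr2:65457118-65567627 (Scn3a) and chr2:66480080-66634962 (Scn9a). Scn10a (chr9:119608456-119719322) and Scn11a (chr9:119753759-119825456) are neighbours, with Scn3b (chr9:40269217-40291618) and Scn4b (chr9:45138395-45154152) elsewhere on that chromosome and Scn8a at chr15:100869858-101045938. Antisense or overlapping genes are annotated at Scn1a, Scn3a, Scn9a and Scn3b. The library kit was stranded, but the sources used here do not say whether counting used strand, so reads of those partners may be included.

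The tissues differed first in which subunits they used. Per kilobase of exon, the summed alpha level was 263 ± 43.1 CPM per kb in WT naive DRG and 79.9 ± 3.84 CPM per kb in WT naive cord (SD, n = 5 each). In WT naive DRG Scn10a made up 39.2% of that sum, Scn11a 28.6%, Scn9a 18%, Scn1a 8.67%, Scn8a 4.03%, Scn2a 1.08% and Scn3a 0.421%. In WT naive cord Scn1a made up 55.3%, Scn8a 25.7%, Scn2a 13.9%, Scn3a 4.03% and Scn9a 0.951%. Thus the tetrodotoxin-resistant pair Scn10a and Scn11a held 67.8% of the alpha level in WT naive DRG and 0.133% in WT naive cord. Shares are per merged exon length. By the length of the longest transcript, Scn11a would hold 24.4% and Scn8a 4.71% in WT naive DRG. Over all 8 groups, that length moved 21 shares by at least their standard deviation between libraries and 35 by less.

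**Figure D1:**
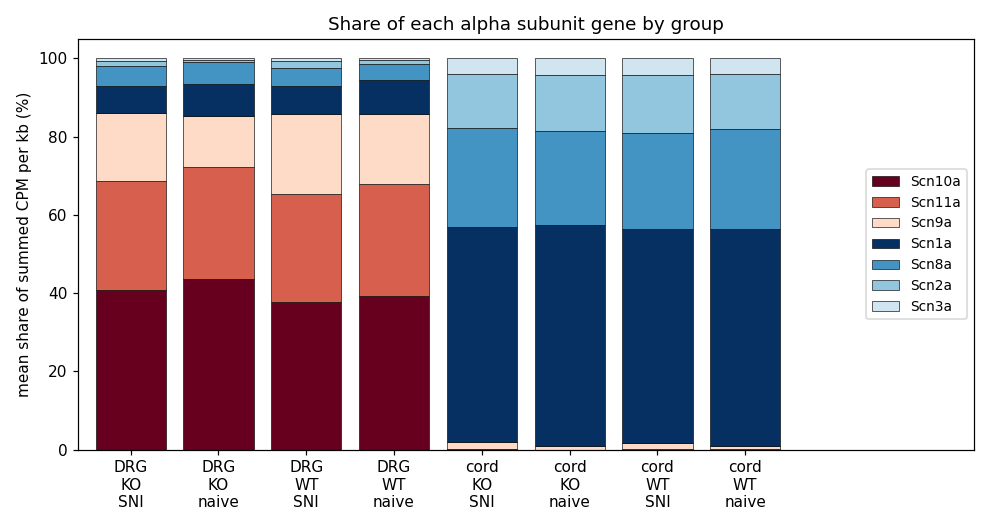
Mean share of each alpha subunit gene in the summed level per kilobase (%, vertical axis) in the 8 groups. Scn10a, Scn11a and Scn9a fill most of each DRG bar, with Scn10a at 39.2% in WT naive DRG, and Scn1a is the largest share in each cord bar, 55.3% in WT naive cord.

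Within WT naive DRG the order of levels per kilobase ran from Scn10a at 104 ± 20.6 through Scn11a at 76.3 ± 18.6, Scn9a at 46.6 ± 3.10 and Scn4b at 36.2 ± 7.57 CPM per kb. It went on with Scn1a at 22.3 ± 0.451, Scn3b at 17.3 ± 2.20, Scn8a at 10.7 ± 2.45, Scn2a at 2.74 ± 0.307 and Scn3a at 1.08 ± 0.117 CPM per kb. Over the 5 libraries Scn10a overlapped with Scn11a, and Scn9a with Scn4b, while each other gene stood clear of the next. In WT naive cord the order was Scn4b (71.8 ± 5.19 CPM per kb), Scn1a (44.2 ± 2.81), Scn8a (20.5 ± 0.931), Scn2a (11.1 ± 0.897), Scn3b (9.98 ± 0.532), Scn3a (3.22 ± 0.281) and Scn9a (0.760 ± 0.0773). Scn2a and Scn3b overlapped there, and the others were apart.

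In the fit over both tissues, 4 of the 9 genes were called higher in naive WT DRG than in naive WT cord, against 40.1% of all 20626 genes tested, and 5 were called lower, against 36.6%. Scn9a was higher by 5.85 ± 0.11 on the log2 scale, and Scn3b by 0.71 ± 0.07. Lower in DRG were Scn2a (-2.11 ± 0.08), Scn3a (-1.67 ± 0.07), Scn1a (-1.07 ± 0.06), Scn4b (-1.07 ± 0.14) and Scn8a (-1.02 ± 0.14), and the adjusted p of these 7 genes was at most 4.92e-08 by the edgeR quasi-likelihood test. Scn10a and Scn11a were the other 2 genes higher in DRG. Scn10a had 634 to 998 CPM in WT naive DRG, against 0.0404 to 0.866 CPM in WT naive cord, and Scn11a had 329.6 to 569 CPM in WT naive DRG, against 0.0446 to 0.842 CPM in WT naive cord. In cord these levels stood for 0 to 34 Scn10a reads per library, where 3 reads were worth 0.121 to 0.141 CPM. The 5 cord libraries with 19 or more Scn10a reads were A5 and B5 of WT naive, F5 of WT SNI, and E6 and F6 of KO SNI, and the others had 0 to 5. Those same 5 libraries were the highest in Scn11a, with 14 to 20 reads, against 0 to 6 in the other 13.

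Most of the family was lower in DRG after nerve injury. In WT DRG, 6 of the 9 genes were called lower after SNI, against 12.3% of all 19496 genes tested, and none was called higher, against 12.6%. When only the WT libraries were fitted, 3 of the 9 were lower, Scn1a, Scn9a and Scn3b. That fit had fewer libraries to estimate the spread, and the 12.3% does not apply to it. Whether its loss of calls was particular to these genes was not tested. In KO DRG, 6 were lower, against 13.3% of all genes, and 1 was higher, against 15.1%. The median log2 fold change of the 9 genes was -0.52 in WT DRG and -0.64 in KO DRG, where the median of all genes was -0.01 in WT and 0.01 in KO. The genes called lower in both genotypes were Scn1a, Scn3b, Scn4b, Scn10a and Scn11a. These measurements are of whole ganglia, in which fewer cells of a type and less RNA per cell cannot be told apart.

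Among the tetrodotoxin-resistant genes, Scn10a, which encodes the main current of the nociceptor action potential upstroke, had 606, 752, 664 and 592 CPM in KO SNI DRG (E2, E4, F2, F4), against 1054, 1026, 979, 1111 and 1108 CPM in KO naive DRG (A2, A4, B2, B4, C2). In WT SNI DRG it had 622, 328, 673 and 416 CPM (E1, E3, F1, F3), against 821, 693, 998, 981 and 634 CPM in WT naive DRG (A1, A3, B1, B3, C1). The KO groups were clear of each other, whereas in WT the SNI library F1 exceeded the naive library C1. The log2 fold change was -0.69 ± 0.18 in KO (adjusted p = 0.00619, edgeR) and -0.70 ± 0.18 in WT (adjusted p = 0.00673), which is 0.619 and 0.618 of the naive level. The WT call was lost when only the WT libraries were fitted (-0.68, adjusted p = 0.0551).

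Scn11a, which encodes a persistent current near the resting potential, had 286, 382, 357 and 303 CPM in KO SNI DRG, against 491, 519.9, 491, 547 and 541 CPM in KO naive DRG. It had 348, 168, 369 and 225 CPM in WT SNI DRG, against 464, 349.6, 569, 549.9 and 329.6 CPM in WT naive DRG. Again the KO groups did not overlap, and in WT the SNI libraries E1 and F1 stood above the lowest naive library. The log2 fold change was -0.64 ± 0.20 in KO (adjusted p = 0.022, edgeR) and -0.71 ± 0.20 in WT (adjusted p = 0.0144). The KO call was lost with no filter on low counts (-0.65, adjusted p = 0.0595), without A2 and A4 (-0.67, adjusted p = 0.0531), and without E2 (-0.58, adjusted p = 0.0648) or F4 (-0.61, adjusted p = 0.0538). The WT call was lost without F3 (-0.61, adjusted p = 0.0538) and when only the WT libraries were fitted (-0.70, adjusted p = 0.0828).

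Of the sensitive alpha genes, Scn1a, known from large myelinated neurons and from mechanical pain fibres, changed with the least spread. It had 148, 151, 152 and 164 CPM in KO SNI DRG, against 273, 280.4, 276, 278 and 256 CPM in KO naive DRG, and 120.4, 115, 132 and 152 CPM in WT SNI DRG, against 254, 248, 241, 252 and 249 CPM in WT naive DRG. Every SNI library lay far below every naive library in both genotypes. The log2 fold change was -0.82 ± 0.07 in KO (adjusted p = 2.81e-08, edgeR) and -0.94 ± 0.07 in WT (adjusted p = 6.3e-09).

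Scn9a, whose channel amplifies small depolarisations in nociceptor endings, had 401, 375, 414 and 472 CPM in WT SNI DRG, against 609, 614, 596, 630.3 and 528 CPM in WT naive DRG. The WT groups did not overlap (log2 fold change -0.52 ± 0.08, adjusted p = 9.64e-05, edgeR). In KO SNI DRG it had 389, 454, 482 and 451 CPM, against 441, 540.4, 489.8, 528 and 530.2 CPM in KO naive DRG. There the groups overlapped, and the difference of -0.19 ± 0.08 was not called (adjusted p = 0.0954; 95% interval -0.36 to -0.02). It was called without A2 (-0.23, adjusted p = 0.0414), with the GC content and length trends of each library removed (-0.20, adjusted p = 0.0175), and without A3, C1, E3 and F3 (-0.19, adjusted p = 0.0318).

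Scn8a, which encodes the main channel of nodes of Ranvier, had 181, 170.4, 166 and 149 CPM in KO SNI DRG, against 291, 233, 268, 270.4 and 262 CPM in KO naive DRG (log2 fold change -0.67 ± 0.19, adjusted p = 0.0124, edgeR). In WT SNI DRG it had 156, 78.2, 165 and 97 CPM, against 169, 135, 215, 198 and 126 CPM in WT naive DRG. The KO groups were apart and the WT groups overlapped, with a WT difference of -0.44 ± 0.19 that was not called (adjusted p = 0.101). It was called without C1 (-0.53, adjusted p = 0.0479), without F1 (-0.60, adjusted p = 0.0311), and with the GC content and length trends removed (-0.42, adjusted p = 0.0338).

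Scn3a and Scn2a are known as channels of the developing and adult central nervous system, and Scn3a is known in rat to be re-expressed in DRG after axotomy. Scn3a had 13.4, 15.8, 13.6 and 16.8 CPM in KO SNI DRG, against 10.6, 12.6, 11.4, 12.9 and 10.1 CPM in KO naive DRG. It had 14.6, 14.9, 14.6 and 14.7 CPM in WT SNI DRG, against 15.3, 14.2, 11.6, 12.5 and 13.4 CPM in WT naive DRG. The KO groups were apart by a narrow gap and the gene was called higher (0.37 ± 0.09, adjusted p = 0.00522, edgeR), whereas the WT groups overlapped (0.14 ± 0.09, adjusted p = 0.325). In WT it was called with the GC content and length trends removed (0.25, adjusted p = 0.0256). Its SNI level, 14.9 ± 1.66 CPM in KO and 14.7 ± 0.142 CPM in WT (SD, n = 4 each), remained the lowest of the alpha genes per kilobase in DRG. Scn2a, at 26.0 to 38.5 CPM over the 18 DRG libraries, was not called in either genotype (0.13 ± 0.10 in KO and -0.14 ± 0.10 in WT).

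Of the beta subunit genes, Scn4b, whose product is known for resurgent current, had 162, 150.5, 148 and 114 CPM in KO SNI DRG, against 294, 220.3, 261, 257 and 284 CPM in KO naive DRG (-0.87 ± 0.20, adjusted p = 0.00271, edgeR). In WT SNI DRG it had 166, 80.8, 155 and 89.4 CPM, against 178, 159, 208, 226 and 132 CPM in WT naive DRG (-0.55 ± 0.20, adjusted p = 0.0481). The KO groups were apart, and the WT groups overlapped. The WT call was lost when only the WT libraries were fitted (-0.54, adjusted p = 0.146), with no filter on low counts (-0.55, adjusted p = 0.133), without A2 and A4 (-0.54, adjusted p = 0.0621), without A3, C1, E3 and F3 (-0.34, adjusted p = 0.112), and with 12 of the 18 libraries left out singly. Scn3b had 77.9, 79.3, 79.9 and 72.5 CPM in KO SNI DRG, against 98.5 to 103 CPM in KO naive DRG (-0.38 ± 0.09, adjusted p = 0.00365), and 58.6 to 78.2 CPM in WT SNI DRG, against 79.3 to 111 CPM in WT naive DRG (-0.47 ± 0.09, adjusted p = 0.000673). Its groups overlapped in neither genotype.

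**Figure D2:**
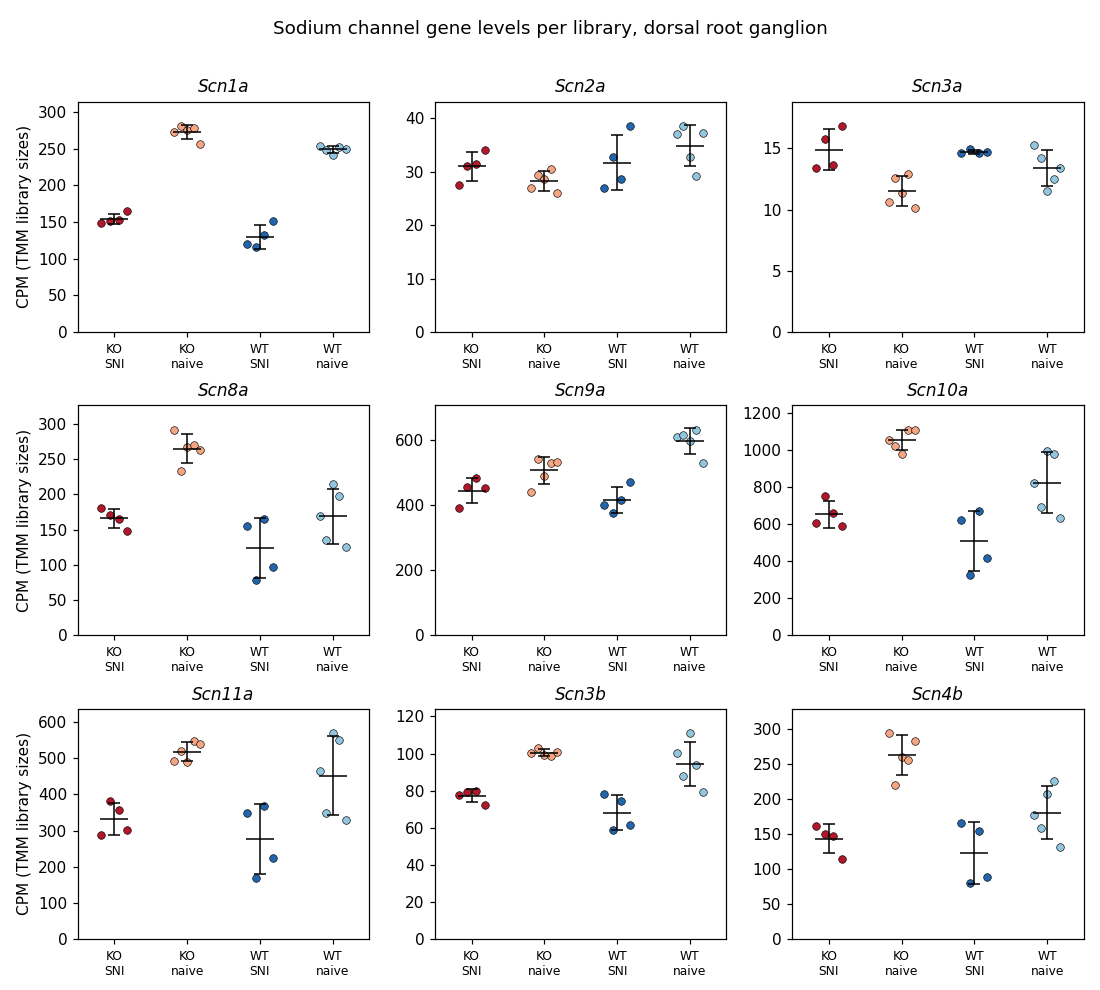
Level of each of the 9 genes in every DRG library (points, CPM on a linear axis from 0), with the mean and SD of each group as bars. Scn1a separates SNI from naive in both genotypes (115 to 164 CPM after SNI and 241 to 280.4 CPM in naive), and the WT groups of Scn8a, Scn10a, Scn11a and Scn4b are spread more widely than the KO groups.

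By the count of genes whose groups did not overlap, 6 were lower in KO SNI than in KO naive DRG, where 15.9% of all genes were, and 1 was higher, against 16.5%. In WT, 3 were lower, against 8.72% of all genes, and 0 were higher, against 9.31%. The summed alpha level was 201 ± 18.3 CPM per kb in KO SNI DRG and 304 ± 12.4 in KO naive DRG, and 166 ± 39.6 in WT SNI DRG and 263 ± 43.1 in WT naive DRG. Scn10a and Scn11a together held 68.6 ± 2.10% of it in KO SNI DRG and 72.3 ± 0.864% in KO naive DRG, and 65.4 ± 6.97% in WT SNI DRG and 67.8 ± 3.86% in WT naive DRG. The ranges of this share overlapped in both genotypes.

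Markers of other cells and states moved beside these falls. All 8 genes of a list of injured neurons, such as Atf3, were higher after SNI in both genotypes, with a summed level of 3580 to 3990 CPM in KO SNI DRG and 229 to 249 CPM in KO naive DRG, and 2613 to 3267 CPM in WT SNI DRG and 196 to 227 CPM in WT naive DRG. All 7 macrophage genes were higher in both, summing to 310 to 380 CPM in KO SNI DRG and 82.9 to 142 CPM in KO naive DRG, and 341 to 576 CPM in WT SNI DRG and 120 to 223 CPM in WT naive DRG. Of 10 nociceptor genes other than the channels, 7 were lower in KO and 6 in WT, and of 8 genes of large myelinated neurons, 7 were lower in KO, while 4 were lower and 1 was higher in WT. Of 12 general neuronal genes, 6 were lower and 2 higher in KO, and 3 were lower and 2 higher in WT. No gene of these lists was at 0 in all libraries of a DRG group, and their part in the falls was not tested.

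The response to injury was not shown to differ by genotype for any of the 9 genes. The interaction of genotype and injury called 0 of them, where 0.0256% of all genes (5 of 19496) were called, and 1 had an unadjusted p under 0.05, against 5.95% of all genes. DESeq2 also called none of the 9. That 1 gene was Scn9a, whose log2 change was less negative in KO, by 0.33 ± 0.11 (unadjusted p = 0.00962, adjusted p = 0.766, edgeR). For Scn10a the difference was 0.00 ± 0.25 with a 95% interval of -0.51 to 0.52, for Scn1a it was 0.11 ± 0.09 (-0.08 to 0.31), and for Scn4b it was -0.32 ± 0.28 (-0.90 to 0.26).

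**Figure D3:**
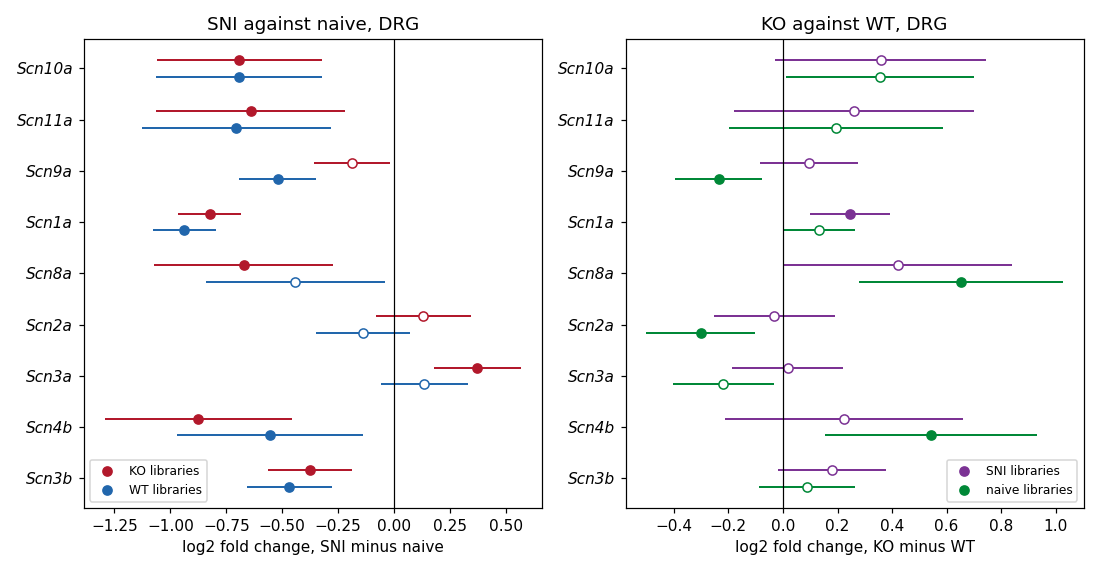
Log2 fold change of each gene in DRG with its 95% interval, SNI minus naive in KO and WT libraries (left) and KO minus WT in SNI and naive libraries (right). Filled points were called and open points were not. On the left, 7 of 9 genes lie below 0 in KO and 8 of 9 in WT, with Scn1a at -0.82 in KO and -0.94 in WT.

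Between genotypes in naive DRG, KO libraries held more RNA of Scn8a and Scn4b and less of Scn2a and Scn9a. Of these, only Scn8a kept its call whichever single library was left out. By count, 2 genes were called higher, against 12.8% of all genes, and 2 lower, against 15.4%. The share of members called was thus 4 of 9, where 28.2% of all genes were called. Scn8a averaged 265 ± 21 CPM in KO naive DRG and 169 ± 38.6 CPM in WT naive DRG (SD, n = 5 each). Every KO library (233 to 291 CPM) stood above every WT library (126 to 215 CPM), and the log2 fold change was 0.65 ± 0.18 (adjusted p = 0.0145, edgeR). It was called with each of the 18 libraries left out in turn, with no filter on low counts (0.66, adjusted p = 0.0376), without A2 and A4 (0.67, adjusted p = 0.0443), and without A3, C1, E3 and F3 (0.46, adjusted p = 0.00178).

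Scn4b averaged 263 ± 28.5 CPM in KO naive DRG and 180 ± 37.7 CPM in WT naive DRG. The groups overlapped at 1 KO library, A4 with 220.3 CPM, which lay below the highest WT library, B3 with 226 CPM (0.54 ± 0.18, adjusted p = 0.0369, edgeR). Scn2a averaged 28.3 ± 1.86 CPM in KO naive DRG and 34.9 ± 3.91 CPM in WT naive DRG (-0.30 ± 0.09, adjusted p = 0.0263). Scn9a averaged 506 ± 41.0 CPM in KO naive DRG and 596 ± 39.5 CPM in WT naive DRG (-0.24 ± 0.08, adjusted p = 0.0303). Scn4b lost its call with no filter on low counts (0.55, adjusted p = 0.0884), and Scn2a without A3, C1, E3 and F3 (-0.21, adjusted p = 0.0796). None of the calls of these 3 genes held without A2 and A4, where Scn4b had 0.58 (adjusted p = 0.0746), Scn2a -0.29 (adjusted p = 0.0996) and Scn9a -0.20 (adjusted p = 0.121). Singly, Scn4b lost its call without A1, A2, A3, B4, C1 or C2 (0.45 to 0.56), Scn2a without A1, A2, A3, B2, C1 or C2 (-0.30 to -0.26), and Scn9a without A1, A2, A3, B2 or B3 (-0.22 to -0.19).

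The other 5 genes were not called. Scn1a, with 256 to 280.4 CPM in KO naive DRG and 241 to 254 CPM in WT naive DRG, did not overlap between genotypes but had a small difference (0.13 ± 0.06, adjusted p = 0.111). Scn1a and Scn8a were the 2 genes whose KO naive libraries all exceeded the WT naive ones, where 9.84% of all genes did. Fitted with the naive libraries alone, Scn1a (0.13, adjusted p = 0.0331) and Scn10a (0.35, adjusted p = 0.0314) were called. Scn1a was also called with the GC content and length trends removed (0.14, adjusted p = 0.0345), and Scn3a was called lower with upper quartile factors (-0.27, adjusted p = 0.0424). Scn10a was at 0.35 ± 0.16 (adjusted p = 0.108), Scn11a at 0.20 ± 0.19, Scn3b at 0.09 ± 0.08 and Scn3a at -0.22 ± 0.09 (adjusted p = 0.0682).

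The WT DRG libraries were not alike, and this bears on each comparison that uses them. For each library, log2 CPM relative to the mean over libraries was regressed on the GC content and the log2 length of the longest transcript of each gene. The slope per doubling of length was lowest in A3 (-0.0871) and C1 (-0.107) of WT naive DRG and E3 (-0.177) and F3 (-0.104) of WT SNI DRG. The other DRG libraries lay between 0.00158 and 0.0807, and the 5 KO naive libraries between 0.0391 and 0.0807. GC slopes differed too. Per 10 points of GC content they were -0.141 in A3, -0.193 in C1, -0.069 in E3 and -0.132 in F3. The other DRG libraries had GC slopes from -0.0861 (A1) to 0.157 (A2). The longest transcripts of Scn4b and Scn8a had 54.5% and 50.8% GC, and those of Scn2a and Scn9a 43.4% and 42.4%. With the GC content and length trends of each library removed together, Scn8a, Scn4b, Scn2a and Scn9a kept their calls between genotypes in naive DRG. GC content was not removed alone, so its own part in the genotype differences was not tested. The 4 WT libraries with the lowest length slopes were also the lowest of their groups in Scn10a, Scn11a, Scn8a, Scn4b and Scn3b. With them left out, Scn10a was lower by 0.52 on the log2 scale after SNI in WT (adjusted p = 0.00138, edgeR) and Scn11a by 0.55 (adjusted p = 0.00213). KO minus WT in naive DRG was then 0.18 for Scn10a (adjusted p = 0.129), -0.02 for Scn11a (adjusted p = 0.903) and 0.37 for Scn4b (adjusted p = 0.0402).

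**Figure D4:**
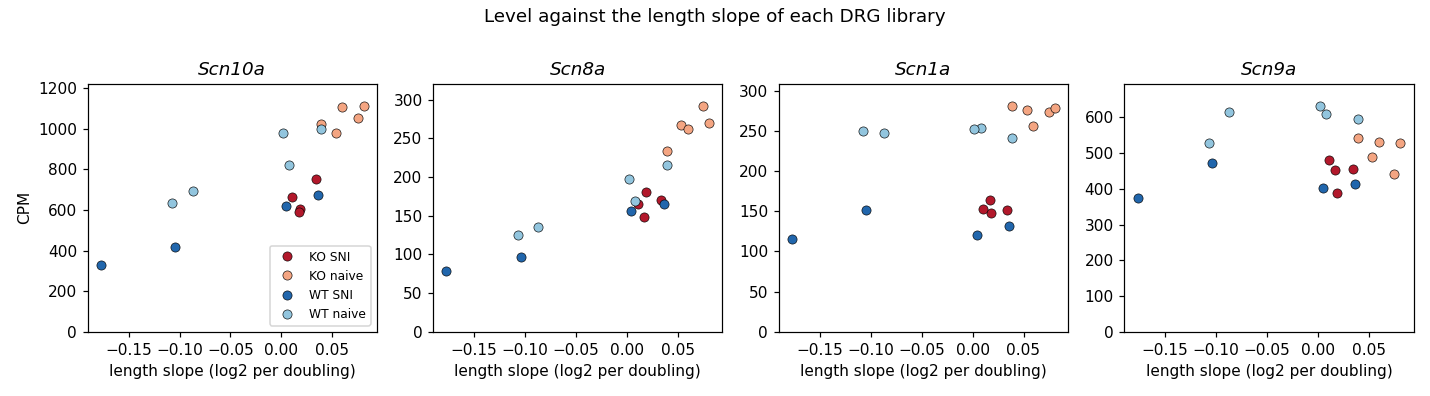
Level (CPM, from 0) of Scn10a, Scn8a, Scn1a and Scn9a against the length slope of each of the 18 DRG libraries (log2 per doubling of transcript length), by group. The 4 points at the left are WT libraries with slopes of -0.177 to -0.0871, low within their groups in Scn10a and Scn8a, while Scn1a stays at 248 and 249 CPM in A3 and C1.

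Cell markers also differed between the naive groups. General neuronal genes were higher for 7 of 12 in KO naive than in WT naive DRG (median log2 fold change 0.34), with a summed level of 15194 to 18577 CPM in KO naive DRG and 10554 to 14613 CPM in WT naive DRG. All 5 blood genes were lower (median -2.13), summing to 191 to 609.6 CPM in KO naive DRG and 737 to 3540 CPM in WT naive DRG, and 4 of 7 macrophage genes were lower. Of 8 genes of large myelinated neurons, 5 were higher and 2 lower. Of 10 nociceptor genes, 1 was higher, 2 were lower and 7 were not called (median 0.06). Whether tissue composition had a part in the genotype differences of the channel genes was not tested.

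After SNI, 1 gene was called higher in KO than in WT DRG, against 2.39% of all genes, and none lower, against 2.71%. Scn1a averaged 154 ± 7.18 CPM in KO SNI DRG and 130 ± 16.2 CPM in WT SNI DRG (0.25 ± 0.07, adjusted p = 0.0479, edgeR). The groups overlapped, since WT library F3 had 152 CPM, and the call was lost when any of 17 of the 18 DRG libraries was left out (0.19 to 0.26, adjusted p up to 0.194), F3 being the exception. It was also lost with upper quartile factors (0.21, adjusted p = 0.12), no filter on low counts (0.23, adjusted p = 0.11) and the GC content and length trends removed (0.16, adjusted p = 0.0884). Scn8a, higher in naive KO, differed by 0.42 ± 0.20 after SNI and was not called (adjusted p = 0.229), and without A3, C1, E3 and F3 the value was 0.05 (adjusted p = 0.88).

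In dorsal spinal cord, 1 of the 9 genes was called after injury, and it was higher. Scn9a had 26.3, 20.4, 17.5 and 18.3 CPM in KO SNI cord (E6, E8, F6, F8), against 11.7, 11.3, 11.8, 12.6 and 9.32 CPM in KO naive cord (A6, A8, B6, B8, C6). It had 18.1, 18, 14.3 and 16.9 CPM in WT SNI cord (E5, E7, F5, F7), against 9.22, 8.97, 11.4, 9.38 and 9.53 CPM in WT naive cord (A5, A7, B5, B7, C5). Every SNI library exceeded every naive library in each genotype, which was so for 5.33% of all genes in KO cord and 3.41% in WT cord. The log2 fold change was 0.86 ± 0.11 in KO (1.81 times the naive level, adjusted p = 1.91e-05, edgeR) and 0.79 ± 0.11 in WT (1.73 times, adjusted p = 9.47e-05). Genes called higher made up 3.79% of all genes in KO cord and 2.61% in WT cord.

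The Scn9a level in cord stayed far below that in DRG, at 1.61 ± 0.314 CPM per kb in KO SNI cord and 34.8 ± 3.06 CPM per kb in KO SNI DRG, and at 1.32 ± 0.138 CPM per kb in WT SNI cord and 32.5 ± 3.20 CPM per kb in WT SNI DRG. Scn10a, the alpha gene most abundant in DRG per kilobase, was at 0 to 1.5 CPM in SNI cord. Of the SNI cord libraries, F5 and F6, with Scn10a at 0.984 and 1.5 CPM, had the lowest Scn9a of their groups, while E6, with Scn10a at 1.32 CPM, had the highest. Beside the rise of Scn9a, 7 of 8 injured neuron genes were called higher in both genotypes, summing to 391 to 461 CPM in KO SNI cord and 222 to 245 CPM in KO naive cord, and 328 to 440.5 CPM in WT SNI cord and 224 to 242 CPM in WT naive cord. All 7 macrophage and microglia genes were higher in both. Of 5 astrocyte genes 2 were higher in both, with a summed level of 5473 to 5902 CPM in KO SNI cord and 4315 to 4756 CPM in KO naive cord, and 5177 to 5533 CPM in WT SNI cord and 4062 to 4867 CPM in WT naive cord. Of 8 nociceptor genes tested, 1 was higher in each genotype, and the list summed to 139 to 181 CPM in KO SNI cord and 90.2 to 102 CPM in KO naive cord, and to 87.6 to 155 CPM in WT SNI cord and 85.9 to 117 CPM in WT naive cord. Of 5 motor neuron genes none was called, and they summed to 112 to 167 CPM in KO SNI cord and 91.1 to 118 CPM in KO naive cord, and to 45.9 to 148 CPM in WT SNI cord and 81.9 to 153 CPM in WT naive cord. The part of these cells in the Scn9a rise was not tested.

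**Figure D5:**
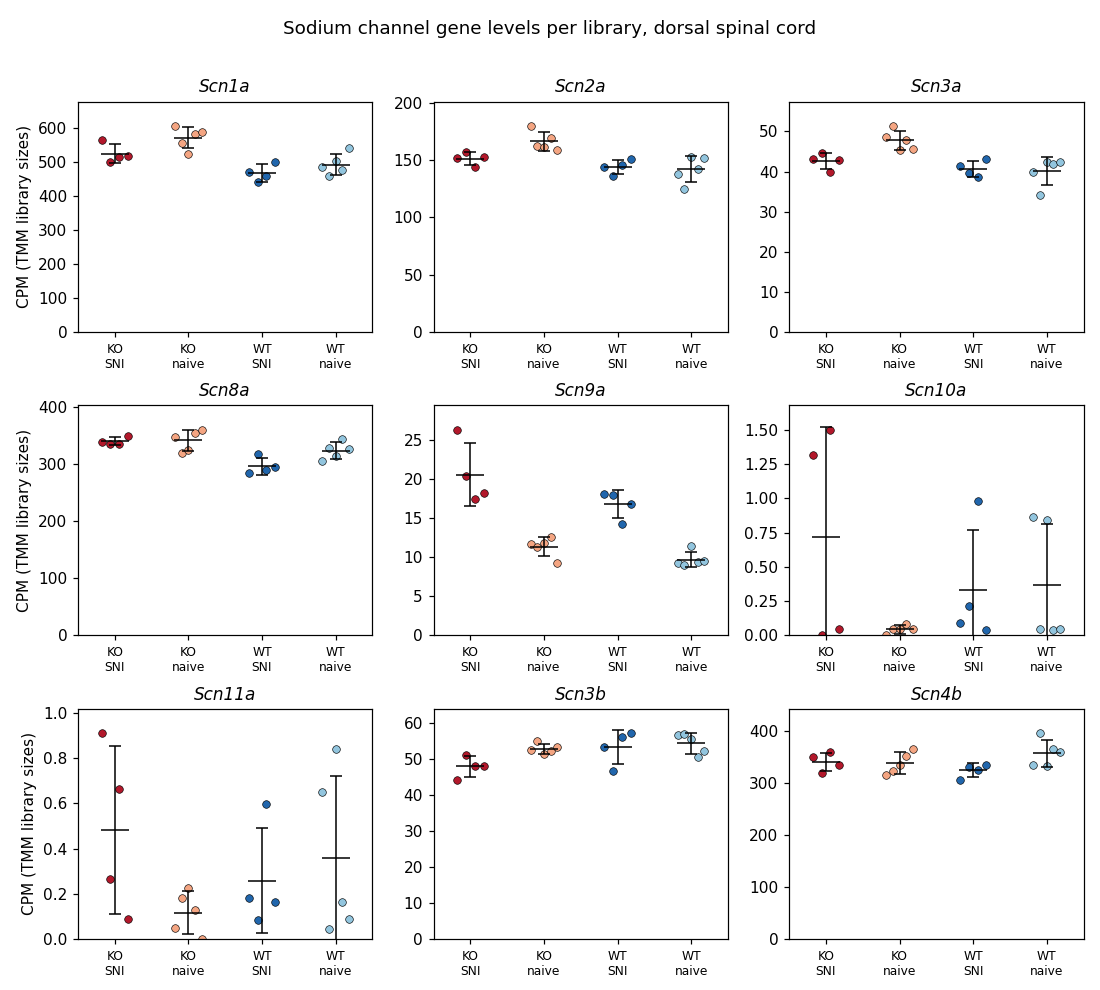
Level of each of the 9 genes in every cord library (points, CPM on a linear axis from 0), with the mean and SD of each group as bars. For Scn9a the SNI points (14.3 to 26.3 CPM) stand above the naive points (8.97 to 12.6 CPM) in both genotypes, and Scn10a and Scn11a are at or under 1.5 CPM in all 18 libraries.

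The remaining 8 genes were not called after injury in cord. The main cord subunit Scn1a had 525 ± 28.7 CPM in KO SNI cord and 572 ± 31.7 CPM in KO naive cord (-0.13 ± 0.05, adjusted p = 0.21, edgeR), and 468 ± 25.5 CPM in WT SNI cord and 492.5 ± 31.3 CPM in WT naive cord (-0.07 ± 0.05, adjusted p = 0.648). For Scn2a, Scn3a, Scn8a, Scn3b and Scn4b the log2 fold changes lay between -0.17 and 0.02. In KO cord, Scn2a, Scn3a and Scn3b were lower in every SNI than in every naive library, where 2.37% of all genes were, with adjusted p from 0.119 to 0.185. Scn10a was at 3.83 ± 1.48 in KO cord (adjusted p = 0.22, edgeR). That value came from E6 and F6, with 29 and 34 reads, while E8 and F8 had 0 and 1 read. Scn11a was at 1.98 ± 0.87 in KO cord (adjusted p = 0.292), with 2 to 20 reads in KO SNI and 0 to 5 in KO naive libraries. In WT cord Scn10a was at -0.13 ± 1.15 (adjusted p = 0.988) and Scn11a at -0.45 ± 0.80 (adjusted p = 0.914).

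The injury response of DRG was set against that of cord within WT by a single fit over both tissues. It was lower in DRG for 3 of the 9 genes, against 6.92% of all genes. The difference was -1.32 ± 0.14 for Scn9a (adjusted p = 1.05e-08, edgeR), which was lower after SNI in WT DRG and higher in WT cord, -0.87 ± 0.09 for Scn1a (adjusted p = 2.75e-09) and -0.45 ± 0.11 for Scn3b (adjusted p = 0.00309).

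Between genotypes in naive cord, Scn2a, Scn3a and Scn1a were called higher in KO, 3 of 9 against 9.79% of all genes, and none was called lower, against 9.94%. Scn2a had 179, 162, 161, 169 and 159 CPM in KO naive cord, against 138, 125, 153, 142 and 152 CPM in WT naive cord (0.23 ± 0.05, adjusted p = 0.00156, edgeR). Scn3a averaged 47.8 ± 2.40 CPM in KO naive cord and 40.2 ± 3.5 CPM in WT naive cord (0.25 ± 0.05, adjusted p = 0.00209). Scn1a averaged 572 ± 31.7 CPM in KO naive cord and 492.5 ± 31.3 CPM in WT naive cord (0.22 ± 0.05, adjusted p = 0.0023). The other tetrodotoxin-sensitive genes, Scn8a (0.08 ± 0.04, adjusted p = 0.179) and Scn9a (0.23 ± 0.11, adjusted p = 0.158), were not called. The groups were apart for Scn2a and Scn3a, where 5.87% of all genes were apart and higher in KO, and they overlapped for Scn1a. With the GC content and length trends of each library removed, the values were 0.12 for Scn2a (adjusted p = 0.011), 0.13 for Scn3a (adjusted p = 0.0165) and 0.12 for Scn1a (adjusted p = 0.017). The length slopes were 0.00282 to 0.0537 in KO naive cord and -0.0425 to 0.00804 in WT naive cord. The 3 genes were also called under the other alternatives run and with each of the 18 cord libraries left out. Beside them, 4 of 5 blood genes were lower in KO naive cord (median -1.06), 1 of 12 general neuronal genes was higher and 3 were lower, and 3 of the 7 tested genes of large myelinated neurons were higher, whose part was not tested.

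After SNI, 1 gene was called higher in KO than in WT cord, against 2.95% of all genes, and none lower, against 3.31%. Scn8a had 338, 334, 336 and 349.7 CPM in KO SNI cord, against 283, 317, 289 and 294 CPM in WT SNI cord. The groups did not overlap, as held for 6.21% of all genes in that direction (0.20 ± 0.04, adjusted p = 0.0065, edgeR). With the GC content and length trends removed the value was 0.12 and was not called (adjusted p = 0.068). Scn2a and Scn3a, called in naive cord, were at 0.07 ± 0.05 (95% interval -0.04 to 0.18) and 0.07 ± 0.06 (-0.06 to 0.19) after SNI. Scn1a, the other gene called in naive cord, was at 0.17 after SNI and was not called in the main fit. Its difference was called with 4 of the 18 cord libraries left out singly (0.13 to 0.20 over all 18). The interaction of genotype and injury in cord called 0 of the 9 genes, where 0% of all genes were called, and DESeq2 called none of the 9. At an unadjusted p under 0.05 it had 3 of them, Scn3a, Scn2a and Scn4b, against 6.1% of all genes.

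Other genes of the channel complex were read from 2 lists. The first held 8 other subunits of the family and of NALCN, the sodium leak channel that sets resting excitability. After SNI, 6 of 8 were lower in KO DRG, against 13.3% of all genes, and 4 of 8 in WT DRG, against 12.3%. None was higher, against 15.1% of all genes in KO DRG and 12.6% in WT DRG. Nalcn averaged 48.1 ± 2.26 CPM in KO SNI DRG and 74.3 ± 2.35 CPM in KO naive DRG (-0.63 ± 0.06), and 43.9 ± 4.00 CPM in WT SNI DRG and 74.3 ± 5.14 CPM in WT naive DRG (-0.76 ± 0.06). Its auxiliary subunit genes Unc79 and Unc80 were also lower in both genotypes. Scn7a, which encodes a sodium-sensing channel of glia and some neurons, was called lower in WT (-0.37 ± 0.08), and the beta gene Scn2b (-0.72 ± 0.16) was called lower in KO. The interaction of genotype and injury in DRG was called for none of these 8.

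In naive DRG, Scn2b had the largest genotype difference of that list, at 43.2 ± 5.74 CPM in KO naive DRG and 18.3 ± 4.76 CPM in WT naive DRG (1.24 ± 0.15, adjusted p = 2.3e-05, edgeR), and it was also higher in KO after SNI (0.95 ± 0.17, adjusted p = 0.0021). Scn7a (-0.22 ± 0.08) and Unc79 (-0.19 ± 0.07) were lower. The second list held 25 partners that bind, anchor, traffic or turn over the channels. In WT DRG, 5 were higher and 8 lower after SNI, against 12.6% and 12.3% of all genes. In KO DRG also 5 were higher and 8 lower, against 15.1% and 13.3% of all genes.

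Among the partners, Fgf11, Fgf12, Fgf13 and Fgf14 encode fibroblast growth factor homologous factors, which bind the channel tail and shift inactivation. Fgf12 was lower (-0.65 ± 0.06 in KO and -0.67 ± 0.06 in WT), as was Fgf13 (-0.58 ± 0.12 in KO and -0.53 ± 0.12 in WT), while Fgf11 was higher (0.74 ± 0.13 in KO and 1.17 ± 0.13 in WT). Fgf14 was not called (0.41 ± 0.20 in KO and 0.20 ± 0.20 in WT). S100a10, which encodes p11, a protein that carries Nav1.8 to the membrane, averaged 925 ± 40.6 CPM in KO SNI DRG and 492 ± 29.8 CPM in KO naive DRG (0.91 ± 0.13), and 1061 ± 206 CPM in WT SNI DRG and 662 ± 132 CPM in WT naive DRG (0.68 ± 0.13). It rose in cord as well (1.31 ± 0.17 in KO and 0.87 ± 0.17 in WT). Rest, which encodes a repressor of neuronal genes that include sodium channel genes, was higher in DRG (0.52 ± 0.07 in KO and 0.48 ± 0.07 in WT).

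The genes whose log2 levels ran most closely with each member were taken over the 18 DRG libraries, from 13401 genes, as a description. These libraries share the injury and genotype groups and the length trend, which any pair of genes can follow. Scn1a was nearest to Fgf12 (r = 0.979), Scn8a to Parm1 (r = 0.994), Scn10a to Phf24 (r = 0.995), Scn4b to Lhfpl4 (r = 0.992) and then to Nefl (r = 0.992), and Scn11a to Hivep2 (r = 0.983). The values were 0.972 for Scn3b with Cacna2d2, 0.960 for Scn9a with Dmxl2, 0.946 for Scn2a with Pik3c2a and 0.924 for Scn3a with Ahnak. Scn3a had the weakest nearest neighbour of the 9.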

How the data were processed

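Poly(A) RNA of 36 libraries was sequenced after stranded library preparation, per the labels' protocols. Reads went through FastQC 0.11.5, HISAT2 and RSEM on GRCm38, per the submitters' processing notes, which give no order, role or further version. Expected counts for 55487 genes, as deposited by the authors, were rounded to whole numbers. In the deposited column of library E1, 9150 cells carried decimal commas, which were read as points. There 1 cell with a letter was restored to 1780.86 from the normalised table. That second table, deposited by the authors, held TMM-normalised signal values and served for this repair and 1 alternative.

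Each tissue was fitted with edgeR 4.0.16 in R 4.3.3 (18 libraries, 4 groups, 14 residual degrees of freedom, TMM factors, filterByExpr, robust quasi-likelihood F tests; 19496 genes in DRG and 18843 in cord), and the tissues were compared in 1 fit of all 36 libraries (20626 genes). P-values were adjusted by Benjamini-Hochberg over all genes of a fit. Common dispersion gave a coefficient of variation between libraries of 0.131 for DRG and 0.0744 for cord. Libraries of a group differed by a chi-square per gene of 2.44 to 51.6, so none was a copy of another. Levels per kilobase used merged exons of GENCODE M21, which paired 55141 identifiers with names. Alternatives used limma 3.58.1 (log2 of the value plus 1), DESeq2 1.42.0, other factors and filters, a title-letter block and libraries left out. Added after seeing the data were removal of GC content and length trends, leaving out A3, C1, E3 and F3, and the column number as a block. The script was tested on simulated counts. Named were all 9 members, up to 4 called genes per channel list and direction by lowest adjusted p and the nearest genes by correlation (mean CPM of at least 2), save some that are not reported here. Fgf13 and Fgf14 were named besides, after their values were seen. The members and lists were chosen with earlier results of these data known.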

Additional observations from a re-analysis of the deposited data

Results flagged for a closer look

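In 72 groups of libraries and genes, 1 library stood apart from the others of its group, where chance alone gives about 1 in 20. Scn9a was at 11.4 CPM in library B5 of WT naive cord, and the other 4 libraries had 8.97 to 9.53 CPM. B5 was also 1 of the 5 cord libraries with 19 or more reads of Scn10a. A5 of the same group, with 20 Scn10a reads, had Scn9a at 9.22 CPM.

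For 3 genes the response to injury differed between WT DRG and WT cord by the test of that difference. The log2 difference between the tissues, DRG minus cord, was -0.87 for Scn1a, -1.32 for Scn9a and -0.45 for Scn3b. Scn9a was called in both tissues in opposite directions, and Scn1a and Scn3b were called lower in DRG and not called in cord.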

How the results depend on the processing

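Of the counts of called sodium channel genes, those for naive cord (3), for DRG against cord (9), for the tissue difference in injury response (3, or 4 with GC content and length trends removed) and for both interactions (0) stayed within 1.5 times their value under every alternative, as did the injury counts of KO DRG (7, range 6 to 8 with a library left out). The WT DRG injury count of 6 was 3 when only the 2 groups compared were fitted, with Scn10a, Scn11a and Scn4b lost, and 4 to 7 with a library left out. The genotype count in naive DRG, 4, was 1 without A2 and A4, and 1 to 5 with a library left out, at 1 without A1, A2 or A3 and at 2 without B2, C1 or C2. In SNI DRG the count of 1 was 0 with upper quartile factors, with no filter on low counts, with GC content and length trends removed, with only the groups compared and without A2 and A4, and 0 to 1 with a library left out, 1 only without F3. In SNI cord the count of 1 was 2 with DESeq2, with only the groups compared and with the replicate number as a block, 0 with GC content and length trends removed, and 1 to 2 with a library left out, where the second gene was Scn1a without A7, B6, C5 or F7 and Scn3b without E7. The injury counts in cord, 1 in each genotype, were 1 to 2 with a library left out, the second gene being Scn3a in KO without A7 and Scn8a in WT without E7. No member reversed its direction where called. All these counts stand without the share of all genes called under the same alternative. A change in a count may therefore not be particular to these genes. The cause of these changes was not tested. Numbers shared between WT and KO libraries correlated at -0.13 to 0.205 and did not pair them. Blocking on the number or on the title letter moved no count of calls by over 1.5 times except that in SNI cord. DRG and cord libraries of the same group and number correlated at 0.0209 to 0.253, and the main fit over both tissues took them as separate. For each DRG library except A2, B4 and F4, the cord library of its group that correlated best was the one of the same number. Blocking on the number shared by DRG and cord (consensus correlation 0.0495) left the tissue counts at 9 and 3. Depth limits Scn10a and Scn11a in cord, at 0 to 34 reads a library.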
